A study of Mus musculus with 6 samples.

Results

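The outer limiting membrane of the retina is a row of cell junctions, and 10 genes that encode its adhesion and polarity proteins were followed here in control and *Yap* cKO retinas. They were *Crb1*, *Crb2*, *Pard3*, *Pard6b*, *Prkci* and *Mpdz*, which act in apical polarity complexes, and *Cdh2*, *Ctnnb1*, *Ctnna1* and *Tjp1*, which build the junction itself. The genes were taken by name, with earlier results of these data known, and matched by symbol. Each symbol matched 1 of the 55421 genes in the count table, and 10 of 10 were among the 16575 genes that passed the filter on low counts.

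RNA was sequenced from retinas of 2-month-old mice, namely retinas YR612, YR613 and YR615 as controls (genotype *Yap* flox/flox) and retinas YR711, YR713 and YR714 as *Yap* cKO (genotype *Yap* flox/flox;Rax-CreERT2), 3 per group. Both groups carried the floxed *Yap* allele, and both received 4-hydroxytamoxifen (4-OHT) at postnatal days 10 and 14. In *Yap* cKO mice 4-OHT switches on a Cre recombinase that the *Rax* gene drives in Müller glia and in the non-pigmented epithelium of the ciliary body. The controls lack the Cre allele, so Cre activity and loss of *Yap* cannot be told apart, and the RNA came from the whole retina, where Müller glia are a minority of the cells.

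Müller glia span the retina, and their apical ends meet the inner segments of photoreceptors in a belt of adherens junctions that appears as a membrane under the microscope. Cadherins hold the cells together there and catenins tie them to actin, while the Crumbs and PAR complexes sit on the apical side and keep the belt in place. In mice, loss of *Crb1* breaks this belt and displaces photoreceptors, and mutations of the human gene cause inherited retinal dystrophies.

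Between 24261799 and 28641877 fragments per control retina, and between 25972334 and 35067068 per *Yap* cKO retina, were assigned to genes. Levels are given as TPM, a unit that corrects the counts for exonic length and depth so that each retina sums to the same total, always in the order YR612, YR613 and YR615 for controls and YR711, YR713 and YR714 for *Yap* cKO. The deleted gene, listed as *Yap1*, stood at 9.48, 9.52 and 9.83 TPM in control retinas and at 3.99, 3.76 and 3.94 TPM in *Yap* cKO retinas. Its log2 fold change was -1.36 (SE 0.093) with an adjusted p of 0.000282, and every *Yap* cKO retina lay below every control, as the labels require. The 9 rod markers summed to between 59897 and 67209 TPM per retina, so the samples carried the defining markers of retina.

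The question was whether the genes of the outer limiting membrane differ in mRNA level between *Yap* cKO and control retinas. None of the 10 passed the test. By the quasi-likelihood test of edgeR, with p adjusted over all genes tested by the Benjamini-Hochberg method, 0 of 10 had an adjusted p of at most 0.05, against 1.49% of all genes tested (247 of 16575, 83 higher and 164 lower). At an unadjusted p under 0.05 there were 2, *Tjp1* with a positive and *Ctnna1* with a negative log2 fold change, where 21.4% of all genes tested reached that level. DESeq2, limma-voom and edgeR's likelihood ratio test also called 0 of 10. In 0 of 10 did the TPM values of the groups separate, although the *Yap* cKO retinas lay above all controls for 15.2% of genes tested and below all controls for 9.04%. The log2 fold change was positive for 6 genes and negative for 4, with a median of 0.05 beside 0.0017 over all genes tested. By mean TPM 8 of 10 genes were higher and 2 lower in *Yap* cKO retinas, since on that scale the median log2 ratio over all genes tested was 0.059, and *Crb2* and *Ctnnb1* changed sign. The median absolute log2 fold change was 0.13 for the 10 genes and 0.16 for all genes tested.

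A p that misses the threshold does not show equal levels, and the 95% intervals give the sizes that these retinas allow. For 9 of 10 genes the interval lay within a 1.5-fold change in either direction, the fold change used by the study as its minimum. The exception was *Tjp1*, whose interval reached 1.6-fold. In whole retina, fewer cells of a type and less RNA per cell cannot be told apart.

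**Figure D1:**
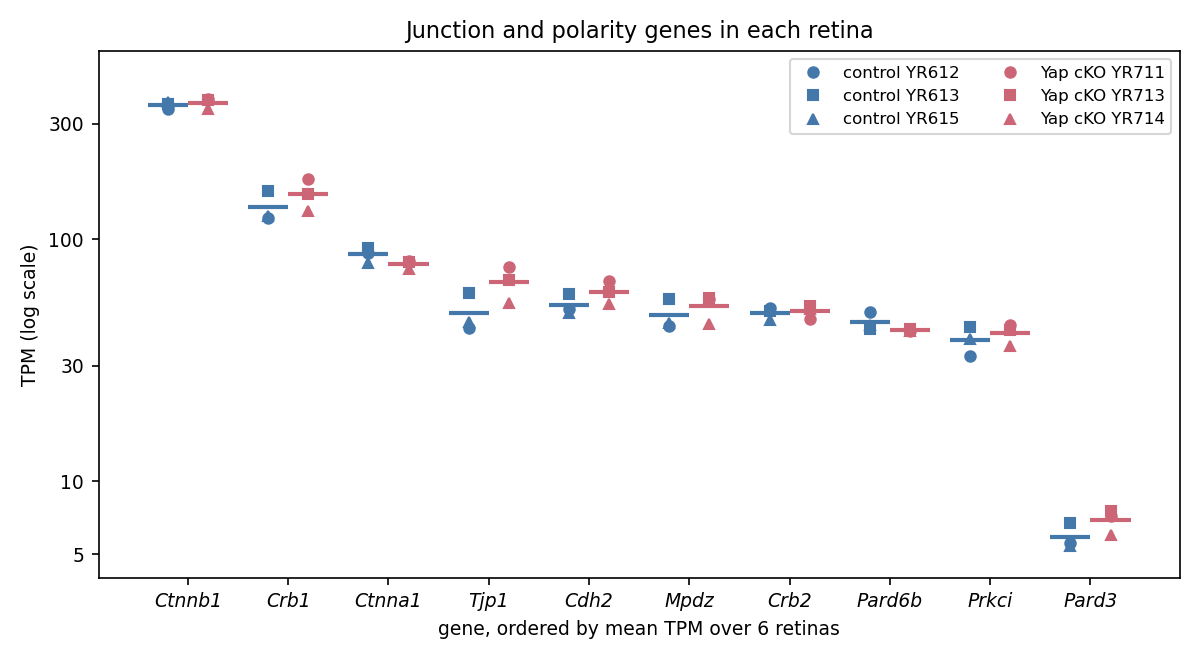
TPM of the 10 genes (log axis) in each of the 3 control (blue) and 3 *Yap* cKO retinas (red), with 1 marker per retina and a bar at the mean of each group. The groups overlap for every gene, and levels run from 362 TPM on average for *Ctnnb1* to 6.41 TPM for *Pard3*.

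Crumbs proteins are transmembrane proteins that mark the apical side of the junctions. *Crb1* (chromosome 1, 139197056 to 139377100, GRCm38) was at 123, 158 and 125 TPM in control retinas and at 178, 153 and 131 TPM in *Yap* cKO retinas. Control YR613 lay above *Yap* cKO YR713 and YR714, so the groups overlapped although the highest value was in a *Yap* cKO retina. Its log2 fold change was 0.13 (SE 0.12), a fold of 1.09 with a 95% interval of 0.910 to 1.32, and the adjusted p was 0.541. *Crb2* (chromosome 2, 37776249 to 37799103), the paralogue with which *Crb1* shares functions in the mouse retina, was at 51.9, 50.6 and 46.3 TPM in controls and at 46.8, 53.0 and 51.4 TPM in *Yap* cKO retinas. The values of both groups were interleaved. For *Crb2* the log2 fold change was -0.03 (SE 0.089), the fold 0.977 with an interval of 0.851 to 1.12, and the adjusted p 0.844, while its mean TPM was slightly higher in *Yap* cKO retinas (50.4 against 49.6).

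*Mpdz* (chromosome 4, 81278500 to 81442815) encodes MUPP1, a scaffold with many PDZ domains that binds the Crumbs complex. It was at 43.8, 56.5 and 45.1 TPM in control retinas and at 56.8, 57.3 and 44.6 TPM in *Yap* cKO retinas. Within each group 1 retina departed from the other two, YR613 upwards among controls and YR714 downwards among *Yap* cKO. The fold was 1.05 (interval 0.881 to 1.25), with an adjusted p of 0.740.

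PAR3 is the scaffold of the PAR complex, PAR6 its adaptor and atypical protein kinase C its enzyme. *Pard3* (chromosome 8, 127063893 to 127612286) was the least abundant of the 10 genes, at 5.58, 6.76 and 5.40 TPM in controls and at 7.19, 7.52 and 6.01 TPM in *Yap* cKO retinas. *Yap* cKO YR714 lay below control YR613, which was the only crossing between the groups. The fold was 1.12 (interval 0.947 to 1.33), and the adjusted p was 0.388. *Pard6b* (chromosome 2, 168081004 to 168101203) was at 49.9, 42.5 and 44.2 TPM in controls and at 41.7, 42.6 and 41.9 TPM in *Yap* cKO retinas. The *Yap* cKO values were the closest together of any gene here, with a coefficient of variation of 1.03%, and YR612 was the high value among controls. Its fold was 0.887 (interval 0.766 to 1.03), with an adjusted p of 0.312. *Prkci* (chromosome 3, 30995747 to 31052959), which encodes the iota form of the kinase, was at 32.8, 43.6 and 38.8 TPM in controls and at 44.2, 42.4 and 36.3 TPM in *Yap* cKO retinas. The groups overlapped broadly, at a fold of 1.03 (interval 0.876 to 1.20) and an adjusted p of 0.850.

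*Cdh2* (chromosome 18, 16588877 to 16809246) encodes N-cadherin, the adhesion receptor of these junctions. It was at 51.3, 59.2 and 49.6 TPM in control retinas and at 67.1, 60.7 and 54.1 TPM in *Yap* cKO retinas. Only control YR613 and *Yap* cKO YR714 crossed, and the fold was 1.09 (interval 0.946 to 1.26), with an adjusted p of 0.438. *Ctnnb1* (chromosome 9, 120929216 to 120960507) encodes beta-catenin, which binds the cadherin tail and also carries Wnt signals to the nucleus. It was the most abundant of the 10 genes, at 343, 362 and 368 TPM in controls and at 380, 374 and 343 TPM in *Yap* cKO retinas. Its interval was also the narrowest of the 10, at a fold of 0.983 (0.882 to 1.09) and an adjusted p of 0.853, while its mean TPM was 366 in *Yap* cKO against 358 in control retinas. The gene shares 23 exonic bases with *Mir7090* on the same strand.

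Alpha-catenin, encoded by *Ctnna1* (chromosome 18, 35118859 to 35254779), links the cadherin and beta-catenin pair to actin. It was at 87.4, 92.1 and 80.1 TPM in control retinas and at 81.6, 80.5 and 75.1 TPM in *Yap* cKO retinas. Control YR615 lay below *Yap* cKO YR711 and YR713, and the other controls lay above all 3 *Yap* cKO retinas. This gave a log2 fold change of -0.19 (SE 0.078), a fold of 0.878 with an interval of 0.778 to 0.990, and the adjusted p was 0.206.

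*Tjp1* (chromosome 7, 65296165 to 65527781) encodes ZO-1, a scaffold that joins junction proteins to actin. It gave the largest fold change of the 10 genes, from 42.8, 60.1 and 45.3 TPM in control retinas to 76.8, 68.1 and 54.6 TPM in *Yap* cKO retinas. Control YR613 lay above *Yap* cKO YR714, and the other 2 controls lay below every *Yap* cKO retina. The fit gave a log2 fold change of 0.37 (SE 0.14), a fold of 1.29 with an interval of 1.05 to 1.6 and an adjusted p of 0.172. This value depended on single retinas. Without control YR613 the log2 fold change was 0.51 with an adjusted p of 0.0353, and without *Yap* cKO YR714 it was 0.48 with an adjusted p of 0.0471, whereas without *Yap* cKO YR711 it was 0.26 with an adjusted p of 0.393.

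**Figure D2:**
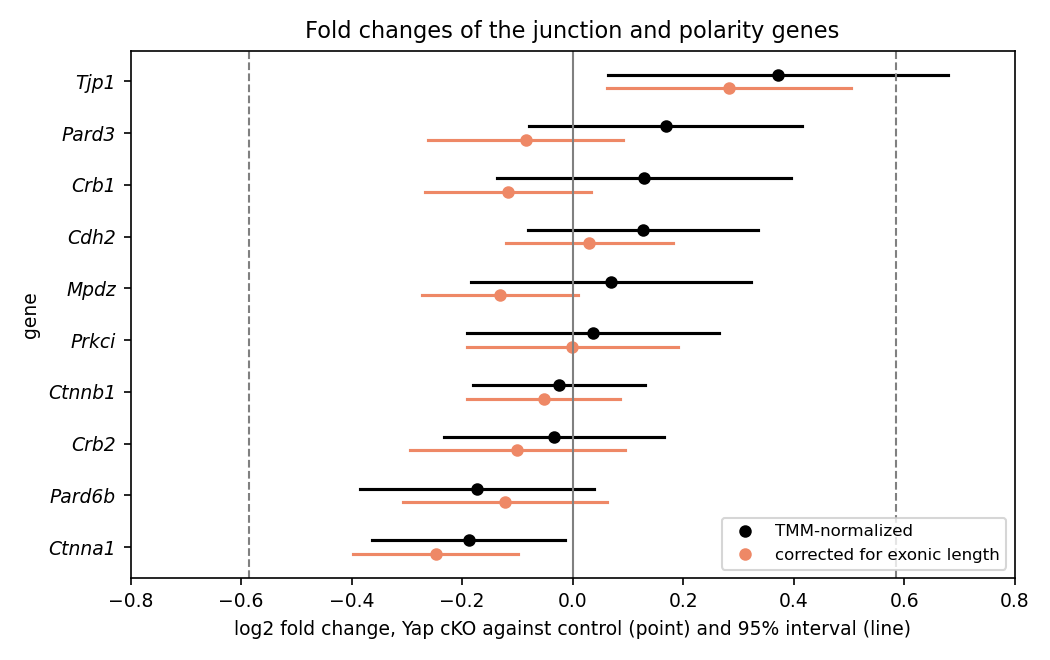
Log2 fold change of each gene, *Yap* cKO against control (horizontal axis), with its 95% interval, from the fit with TMM normalization (black) and from the fit corrected for exonic length (orange). Dashed lines mark a 1.5-fold change, which only the uncorrected interval of *Tjp1* crosses, and 4 genes change sign between the fits.

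By mean TPM over the 6 retinas the order of the genes was *Ctnnb1* (362), *Crb1* (145), *Ctnna1* (82.8), *Tjp1* (58.0), *Cdh2* (57.0), *Mpdz* (50.7), *Crb2* (50.0), *Pard6b* (43.8), *Prkci* (39.7) and *Pard3* (6.41). Between neighbours in this order, the values over 6 retinas did not overlap for *Ctnnb1* and *Crb1*, for *Crb1* and *Ctnna1*, and for *Prkci* and *Pard3*. *Ctnna1* was above *Tjp1* in 6 of 6 retinas although their ranges overlapped. From *Tjp1* to *Prkci* the ranges of neighbours overlapped, although *Cdh2* was above *Mpdz* and *Crb2* above *Pard6b* in 6 of 6 retinas. When TPM was computed from exonic lengths shortened by 200 bases, *Mpdz* and *Crb2* changed places and the other 8 kept their rank. *Ctnnb1* mRNA was 2.50 times that of *Crb1* per length and 56.4 times that of *Pard3*. The length used covers all annotated exons of a gene, 5192 bases for *Ctnnb1*, 14432 for *Crb1* and 14849 for *Pard3*. Which transcripts the retina makes was not tested, so the order and these ratios hold only for that length.

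Nearly all these proteins have paralogues. The share of each in the summed TPM of its group tells which form has the most mRNA per exonic length. *Crb1* made up 70.7% ± 3.03 (SD, n = 3) of Crumbs mRNA in control and 73.8% ± 4.14 (SD, n = 3) in *Yap* cKO retinas, with *Crb2* at 26.2% and 24.5% and *Crb3*, the short Crumbs form of many epithelia, at 3.10% and 1.78%. *Mpdz* held 87.6% and 87.8% of its group with *Patj*, the other scaffold of this build. *Pard3* held 78.7% and 78.8% beside *Pard3b*, and *Ctnnb1* held 94.0% and 93.8% beside plakoglobin (*Jup*). In these groups the listed junction gene was the main form in both genotypes.

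In other groups a paralogue was as abundant or more so. *Pard6b* made up 42.7% of PAR6 mRNA in control and 43.1% in *Yap* cKO retinas, beside 48.9% and 46.5% for *Pard6a* and 8.40% and 10.4% for *Pard6g*. *Prkci* made up 35.5% and 35.4% of the atypical kinase mRNA, and its paralogue *Prkcz*, the zeta form, the remaining 64.5% and 64.6%. Most of the mRNA of the kinase group thus came from a gene outside the 10 followed here.

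Of the 10 genes *Ctnna1* alone had a share that separated the groups, if *Cdh2* and *Tjp1*, for which no share is given, are left aside. In TPM, the *Yap* cKO retinas lay above all controls for 15.2% of all genes tested and below all controls for 9.04%. *Ctnna1* made up 73.3%, 72.2% and 69.0% of alpha-catenin mRNA in controls and 64.8%, 67.2% and 66.5% in *Yap* cKO retinas. The difference was taken up by *Ctnna2*, the form typical of neurons, at 26.7%, 27.7% and 31.0% in controls and 34.9%, 32.4% and 33.3% in *Yap* cKO retinas. *Ctnna3* stayed under 0.4% in every retina. The exonic lengths of *Ctnna1* and *Ctnna2*, 6425 and 6947 bases, are close. Neither gene passed the test alone, *Ctnna2* having a log2 fold change of 0.16 (SE 0.080) and an adjusted p of 0.264. In the fit corrected for exonic length *Ctnna2* was at 0.091 (adjusted p 0.511) and *Ctnna1* at -0.25 (adjusted p 0.0768). The shares are given as a description with no test (the smallest two-sided p of an exact permutation test of 3 against 3 retinas is 0.1), and 5 of the 17 shares given separated the groups, those of *Ctnna1*, *Ctnna2*, *Ctnna3*, *Crb3* and *Pard6g*. Shares within a group depend on each other. The percentages of all genes tested given above are for TPM of single genes, and no such percentage was computed for shares.

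**Figure D3:**
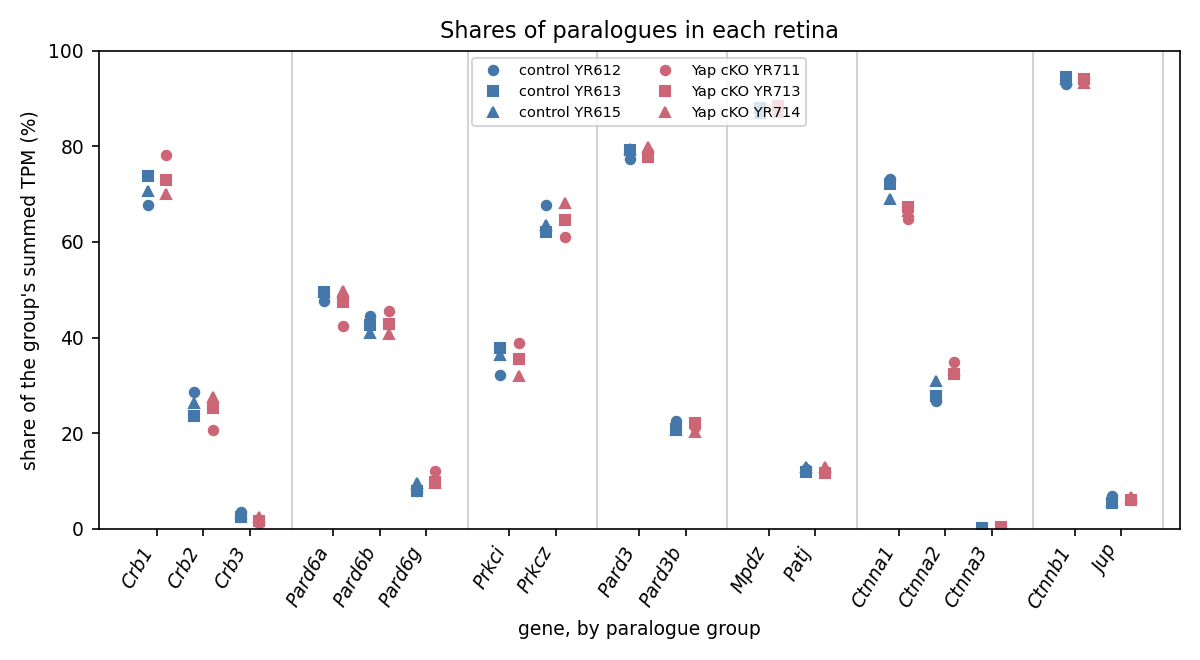
Share (%) of each gene in the summed TPM of its paralogue group, in each of the 3 control (blue) and 3 *Yap* cKO (red) retinas, with 1 marker per retina and grey lines between the 7 groups. *Ctnna1* lies between 69.0% and 73.3% in controls and between 64.8% and 67.2% in *Yap* cKO retinas, whereas the shares of *Crb1*, *Pard6b*, *Prkci*, *Pard3*, *Mpdz* and *Ctnnb1* overlap.

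Many of the 10 genes were high or low in the same retinas. Relative to the mean of all 6 retinas on the log2 scale, 8 of 10 genes were above the mean in control YR613, 7 of 10 in *Yap* cKO YR711 and 8 of 10 in *Yap* cKO YR713, but 4 of 10 in control YR612, 2 of 10 in control YR615 and 1 of 10 in *Yap* cKO YR714. The 5 genes with the longest exonic sequence, *Pard3*, *Crb1*, *Mpdz*, *Cdh2* and *Tjp1* (7811 bases or more), had the same pattern of signs, with positive values in YR613, YR711 and YR713 and negative values in YR612, YR615 and YR714. Their median relative expression was -0.12 in YR612, 0.075 in YR613 and -0.18 in YR615 among controls. Among *Yap* cKO retinas it was 0.19 in YR711, 0.15 in YR713 and -0.080 in YR714. Of the 5 shorter genes (6698 bases or less), *Prkci* had these signs too, the other 4 did not, and *Pard6b* and *Crb2* were at their lowest in YR711.

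Exonic length moved with expression in the same retinas across all genes tested. Spearman's coefficient across genes between relative expression and exonic length was -0.41 in YR612, 0.17 in YR613, -0.41 in YR615, 0.40 in YR711, 0.39 in YR713 and -0.15 in YR714, where genes are not independent replicates. The retinas with positive values are thus those in which the long junction genes were high, and they number 2 of 3 in the *Yap* cKO group and 1 of 3 among controls. The 10 genes are long as a group, 9 of 10 having more exonic bases than the median gene tested (4132).

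When the offsets of the fit were corrected for length in each retina, 0 of 10 genes passed the test, against 2.77% of all genes tested (459 of 16575). The number with a positive log2 fold change went from 6 to 2, and among the 5 longest genes from 5 to 2. *Crb1* went from 0.13 to -0.12, *Pard3* from 0.17 to -0.085, *Mpdz* from 0.07 to -0.13, and *Prkci* from 0.04 to -0.00065. *Tjp1* stayed positive at 0.28 (adjusted p 0.152) and *Ctnna1* negative at -0.25 (adjusted p 0.0768), and 10 of 10 intervals then lay within a 1.5-fold change. The direction of 4 genes thus depended on the length correction, and whether RNA quality or library preparation differed between retinas was not tested.

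**Figure D4:**
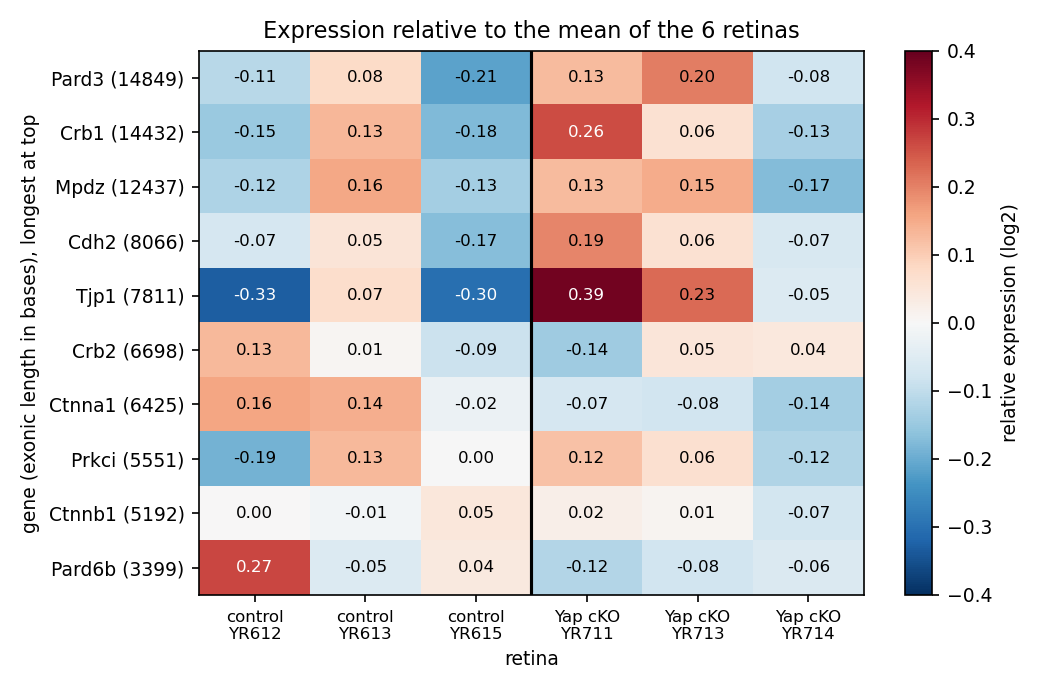
Relative expression (log2, colour and printed value) of the 10 genes in each retina, against the mean of the 6 retinas, with genes ordered from the longest to the shortest exonic sequence and controls left of the black line. The 5 longest genes are positive in control YR613 and in *Yap* cKO YR711 and YR713 and negative in the other 3 retinas.

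To set the 10 genes in their pathways, 53 other genes of polarity and junction complexes were examined in 5 lists. All 53 were tested, and 1 passed (0 higher and 1 lower), beside the 1.49% of all genes tested. That gene was *F11r* (chromosome 1, 171437535 to 171464603), which encodes JAM-A, an adhesion molecule of the immunoglobulin superfamily at tight junctions, and which is also transcribed in blood vessels, platelets and many epithelia. It was at 21.2, 16.4 and 18.3 TPM in control retinas and at 12.2, 10.9 and 8.52 TPM in *Yap* cKO retinas. Every *Yap* cKO retina lay below every control. The log2 fold change was -0.89 (SE 0.16), a fold of 0.540 with an interval of 0.422 to 0.692, and the adjusted p was 0.0322. With 1 retina left out the log2 fold change lay between -1.0 and -0.76, and the adjusted p rose to 0.146 without control YR612, to 0.138 without control YR615 and to 0.138 without *Yap* cKO YR713.

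Among 10 other genes of the Crumbs complex and its partners, 6 had a positive and 4 a negative log2 fold change (median 0.05), and 0 passed the test. With the length correction 3 were positive and 7 negative (median -0.15). *Mpp4*, a photoreceptor scaffold of the MAGUK family and the most abundant of them, was at 248, 253 and 245 TPM in controls and at 207, 222 and 219 TPM in *Yap* cKO retinas, with no overlap between the groups. Its log2 fold change was -0.26 (SE 0.072) with an adjusted p of 0.103, and -0.34 with an adjusted p of 0.0429 after the length correction. *Lin7a*, a small PDZ protein of the same scaffold, was at 27.7, 56.6 and 35.8 TPM in controls and at 92.3, 87.6 and 60.6 TPM in *Yap* cKO retinas. The groups did not overlap, and within each group the retina-to-retina spread was wide. The log2 fold change was 0.95 (SE 0.22), the adjusted p was 0.0741, and after the length correction the values were 1.0 and 0.0455. *Crb3* was at 6.40, 5.50 and 5.66 TPM in controls and at 2.7, 3.53 and 4.58 TPM in *Yap* cKO retinas, with a log2 fold change of -0.75 (SE 0.22) and an adjusted p of 0.119. *Patj*, the paralogue of *Mpdz*, had a log2 fold change of 0.03, and of -0.19 after the length correction.

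Of 7 PAR paralogues and regulators, 5 were positive and 2 negative (median 0.05), 0 passed the test and 0 had separate groups. The length correction turned this to 2 positive and 5 negative (median -0.014). *Cdc42*, the GTPase that switches on the PAR complex, was the most abundant at 338 TPM on average, with a log2 fold change of -0.08 (SE 0.073). The largest change in the list was that of *Pard6a*, at -0.24 (SE 0.12) with an adjusted p of 0.282.

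The Scribble module restricts the apical complexes from the basolateral side. Of its 8 genes 6 were positive and 2 negative (median 0.16), 0 passed the test, and in 5 the *Yap* cKO retinas lay above all controls, which holds for 15.2% of all genes tested. *Dlg4*, which encodes the synaptic scaffold PSD-95 and was the most abundant, had a log2 fold change of 0.18 (SE 0.077) and an adjusted p of 0.219. With the length correction the value of *Dlg4* was -0.039. *Dlg2*, a synaptic paralogue, was at 43.1, 60.6 and 48.7 TPM in controls and at 82.6, 77.8 and 66.3 TPM in *Yap* cKO retinas, with a log2 fold change of 0.52 (SE 0.11) and an adjusted p of 0.0624. Its exonic sequence of 17870 bases is long, and after the length correction the log2 fold change was 0.22. The median of the list fell to 0.02 with that correction.

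Among 17 other cadherins, catenins and nectins of adherens junctions, 11 were positive and 6 negative (median 0.01), and 0 passed the test. After the length correction 7 were positive and 10 negative (median -0.038). *Nectin1*, the most abundant, was at 63.3, 64.3 and 56.6 TPM in controls and at 63.6, 66.6 and 62.0 TPM in *Yap* cKO retinas. Its log2 fold change was 0.0035 (SE 0.080) with an interval of 0.885 to 1.14 in fold. The largest change was that of *Ctnna3*, with 3 to 26 counts per retina, at a log2 fold change of 1.33 (SE 0.45) and an adjusted p of 0.150. *Nectin3*, an adhesion receptor that pairs with nectin 1, passed only after the length correction, with a log2 fold change of -0.48 and an adjusted p of 0.0104, against -0.26 and 0.234 without it. It was named after its values were seen.

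In the list of 11 ZO, JAM and scaffold genes, 5 were positive and 6 negative (median -0.05), likewise 5 and 6 after the length correction (median -0.12), and the only one to pass was *F11r*. *Tjp3* had a log2 fold change of -0.39 (SE 0.17) and an adjusted p of 0.219.

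**Figure D5:**
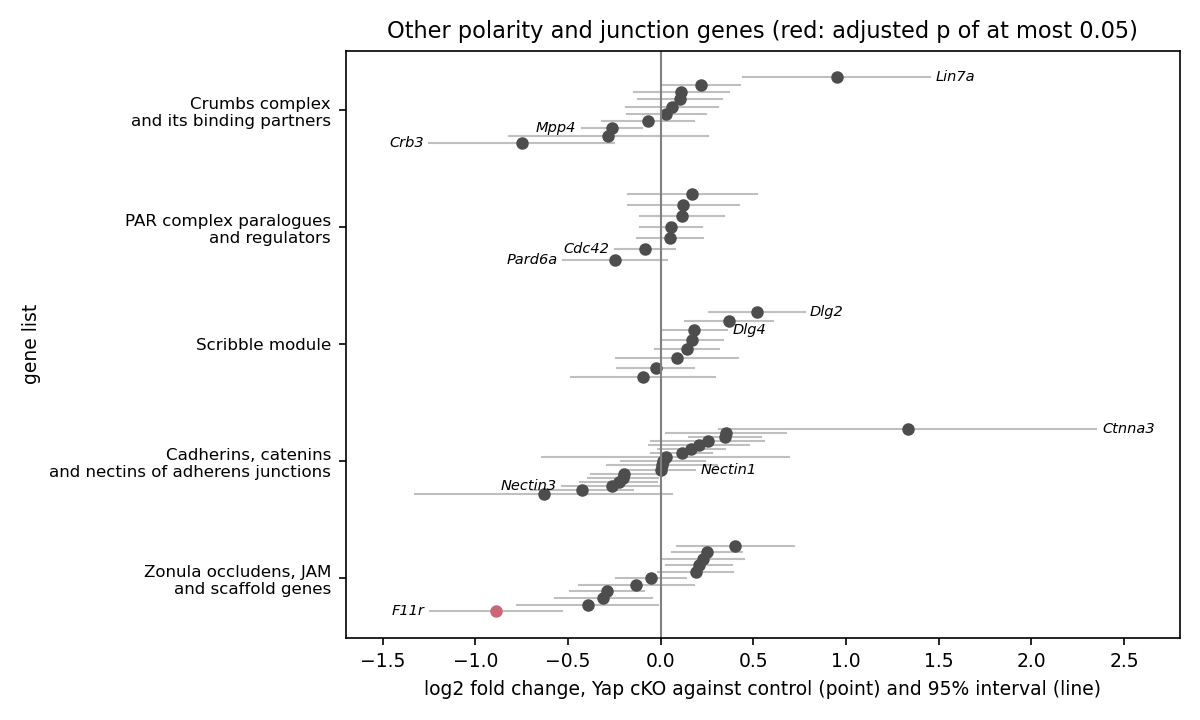
Log2 fold change, *Yap* cKO against control (horizontal axis), of 53 other polarity and junction genes in 5 lists. Each point is a gene and each line its 95% interval, with some of the named genes labelled. *F11r*, at -0.89, is the only point in red, which marks an adjusted p of at most 0.05.

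Markers of other cells stand here beside the junction genes, and some of them passed the test. Of 9 markers of the ciliary body non-pigmented epithelium, 4 passed the test, all lower in *Yap* cKO retinas (*Optc*, *Slc26a4*, *Fbln1* and *Ltbp2*). Their list summed to 183, 143 and 155 TPM in controls and to 30.9, 65.6 and 32.9 TPM in *Yap* cKO retinas, and its most abundant gene was *Optc*. *Slc26a4* was at 8.87, 8.64 and 7.74 TPM in controls and at 0.201, 0.444 and 0.0941 TPM in *Yap* cKO retinas. Of 7 markers of melanin pigment cells 1 passed, *Pmel*, lower, and the list, led by *Dct*, summed to 81.9, 75.0 and 76.6 TPM in controls and to 17.9, 50.6 and 29.0 TPM in *Yap* cKO retinas. Of 6 markers of the retinal pigment epithelium 0 passed, with sums of 654, 721 and 684 TPM in controls and 202, 371 and 706 TPM in *Yap* cKO retinas, *Ttr* being the most abundant and *Rpe65* having the smallest p. These epithelia also build cadherin and ZO junctions, and their part in the values of *F11r*, *Crb3*, *Ctnna1* and the other genes was not tested.

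For Müller glia themselves, 0 of 12 markers passed the test, 8 were negative and 4 positive (median -0.18), and the most abundant was *Glul*, which encodes glutamine synthetase. Their sum was 7269, 7353 and 7487 TPM in controls and 6851, 6402 and 6617 TPM in *Yap* cKO retinas, so the sums, which a few abundant genes carry, did not overlap. Of 12 single markers 1 separated the groups downwards, *Rlbp1*, and 1 upwards, the potassium channel *Kcnj10*. Among all genes tested 9.04% separated the groups downwards in TPM and 15.2% upwards. *Kcnj10* was named after its values were seen and had a log2 fold change of 0.28. *Rlbp1*, which encodes a retinaldehyde carrier, had the smallest p, with a log2 fold change of -0.36 (SE 0.075) and an adjusted p of 0.0540. It passed after the length correction, at -0.29 with an adjusted p of 0.0453. The 10 junction genes summed to 831, 931 and 847 TPM in controls and to 980, 939 and 838 TPM in *Yap* cKO retinas, where the groups overlapped. The part of Müller cell number in the junction values was not tested.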

How the data were processed

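The authors prepared stranded libraries of polyadenylated RNA, aligned the reads to GRCm38 with STAR 2.7.3a and counted fragments per gene with featureCounts 1.6.2 (strand setting 2). The deposited table holds raw counts for each retina beside each gene's exonic length. The table's header names annotation release 98. Labels gave genotype, 4-OHT days and animal codes, and the study's methods gave the age. Whether the sequenced animals were littermates is not stated.

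Symbols came from the reference annotation and matched 55154 of 55421 identifiers. TPM were computed from counts and exonic length. Genes kept by filterByExpr were normalized by TMM and tested with edgeR 4.0.16 (quasi-likelihood test, R 4.3.3), with Benjamini-Hochberg adjustment over 16575 genes and no covariate. Standard errors and 95% intervals were derived from the F statistic of each gene. The length correction fitted, in each retina, a loess curve (span 0.3) of relative expression against log exonic length and added it to the offsets. The alternatives were other size factors, DESeq2 1.42.0, limma-voom (limma 3.58.1), the likelihood ratio test, other filters, length and GC correction, and leaving out each retina. The procedure was tested on simulated data.

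The 10 genes, the 5 lists of polarity and junction genes and the 15 lists of markers were chosen with earlier results of these data known. The text names the 10 genes, *Yap1* and their paralogues, in each polarity list the genes that passed, the most abundant and the largest fold change, and in each marker list the most abundant and the smallest p, except for a few items that are not reported here. Total counts bound the precision: the 10 genes had between 547 and 19272 counts per retina.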

Additional observations from a re-analysis of the deposited data

How the results depend on the processing

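Of 160 log2 fold changes of the 10 genes under 16 alternatives, 141 kept their direction and their side of the threshold, 4 passed the threshold and 15 changed sign. None of the 10 passed with median-ratio size factors, library size alone, DESeq2, the likelihood ratio test, limma-voom, a CPM filter, or the length or GC correction; 1 passed with no filter on low counts (*Tjp1*), 1 with the length correction and likelihood ratio test together (*Ctnna1*), 2 at an unadjusted p under 0.05 and 0 to 1 with a retina left out. The sign changed for *Crb1* (-0.12), *Pard3* (-0.085), *Prkci* (-0.00065) and *Mpdz* (-0.13) under the length correction, and with the likelihood ratio test added (-0.12, -0.084, -0.00067 and -0.13). Under the GC correction *Crb2* became 0.064 and *Prkci* -0.0020. With a retina left out *Crb2* ranged from -0.086 to 0.022, *Prkci* from -0.045 to 0.12 and *Ctnnb1* from -0.051 to 0.00057.

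Over all genes, 247 calls became 892 with DESeq2, 1025 with the likelihood ratio test, 1865 without the filter, 459 with the length correction, 1029 with that correction and the likelihood ratio test, 635 with the GC correction, 132 with the study's fold and TPM minimums, and 49 (without control YR615) to 1490 (without control YR613) with a retina left out. The 1 call among the 53 other polarity and junction genes became 6, 8, 10, 4, 9 and 3 in the first 6 of these settings and 0 to 8 with a retina left out, 0 without YR612, YR615 or YR713. *F11r* was called in 10 of the 10 settings that keep all retinas. The cause of these changes was not tested. With 3 retinas per group the intervals of the 10 genes admit changes of up to 1.6-fold. A change confined to Müller glia could be diluted in whole retina where other cells transcribe the same gene, which was not tested.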

Other observations

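Neurons that do not take part in the outer limiting membrane were read from the remaining marker lists. Among 8 bipolar cell markers 1 passed the test, *Grm6*, the glutamate receptor of ON bipolar cells, which was higher in *Yap* cKO retinas, while 5 of the 8 were positive and 3 negative (median 0.12). It was at 56.0, 56.9 and 51.6 TPM in controls and at 77.3, 80.3 and 77.4 TPM in *Yap* cKO retinas. For *Grm6* the log2 fold change was 0.46 (SE 0.076), with an adjusted p of 0.0249 in edgeR's quasi-likelihood test. Among 9 amacrine and horizontal cell markers 0 passed, 8 were positive and 1 was negative, with a median of 0.28 that was 0.09 after the length correction. *Gad1* was the most abundant of them, and *Onecut1*, a factor of horizontal cells with the smallest p, had a log2 fold change of 0.99 (SE 0.29) and an adjusted p of 0.122.

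Photoreceptors form the other side of the junctions. Of 9 rod markers 0 passed and 8 were negative (median -0.08), and of 7 cone markers 0 passed (median 0.04). *Opn1sw* was the most abundant cone marker. *Arr3*, the cone arrestin, had the smallest p, separated the groups and passed after the length correction, with a log2 fold change of 0.35 and an adjusted p of 0.0189. Of 5 astrocyte markers, led by *S100b*, 1 passed, *Aldh1l1*, which Müller glia also transcribe, at 15.8, 17.1 and 15.7 TPM in controls and 9.74, 10.1 and 9.43 TPM in *Yap* cKO retinas. Its log2 fold change was -0.79 (SE 0.092), with an adjusted p of 0.00437. Of the 5, 2 were positive and 3 negative (median -0.05), and *S100b* had a log2 fold change of 0.12 with separate groups. In the lists for retinal ganglion cells (*Nefl*, *Slc17a6*), endothelium (*Kdr*, *Cldn5*), pericytes and smooth muscle (*Rgs5*, *Tagln*), microglia and stress genes (*Ddit3*, *Hspa1a*), 0 genes passed, the names being those of the most abundant gene and of the smallest p. After the length correction 2 of these genes passed, both lower in *Yap* cKO retinas. They were *Hspa1a*, a heat shock gene, at a log2 fold change of -0.46 (adjusted p 0.0305) and the endothelial receptor *Flt1*, named after its values were seen, at -0.39 (adjusted p 0.0162). Of 7 lens markers 2 were abundant enough to be tested (*Cryaa* and *Bfsp1*) and 0 passed.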
